A study of Mus musculus with 30 samples.

Results

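The genes described here are 40 genes of ribosome biogenesis and RNA polymerase I (Pol I) transcription, taken as a list of named genes and not by a cutoff on their measured values. The list was chosen with earlier results of these data known, so its shares beside all genes are descriptions and not unbiased comparisons. All 40 were among the 55487 gene identifiers of the count table, and all 40 were among the 15907 genes with enough counts to be tested. They comprised 6 genes of Pol I transcription and its regulator Myc, 3 of the box C/D and 4 of the box H/ACA small nucleolar ribonucleoproteins (snoRNPs), 6 of the nucleolar body, 10 of the small subunit and 11 of the large subunit.

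RNA was sequenced from wild-type C2C12 cells, an established mouse myoblast line, fused into myotubes over 4 days and then kept for another 4 days in 1 of 5 media. The control (2% HS) stayed in 2% horse serum, and the serum-deprived group (SD) had none. The other groups were also serum-deprived and received 100 nM metformin (MET), 500 nM leucine (LEU) or both agents at those concentrations (MET+LEU). Each group had 6 libraries of 12784960 to 19604103 counts. All groups come from 1 cell line in culture, and the labels do not say whether replicates were separate cultures, so p-values measure the spread between these libraries, which may be technical.

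Ribosomes are built in the nucleolus, where Pol I transcribes the precursor of the large ribosomal RNAs and box C/D and box H/ACA snoRNPs guide its methylation and pseudouridylation. Processing complexes then cleave and fold the precursor with ribosomal proteins into a small and a large subunit, which are exported to the cytoplasm. The pathway is driven by growth signals through MYC and is known for setting the capacity for protein synthesis of growing muscle.

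The labelled cell type carried its markers: 10 of 10 muscle markers, Ttn, Acta1, Des and Myog among them, were detected in every group and summed to 28511 CPM or more. Summed markers of fat cells, endothelium and blood stayed at or below 3.72 CPM (counts scaled to a common library size) in every library, and Adipoq, Cidec, Kdr, Hbb-bs or Hba-a1 were at 0 in 1 or more groups. Fibroblast markers summed to 543 to 637 CPM in 2% HS and 740.2 to 905 CPM in SD, with Tcf21 at 0. MET+LEU replicate 6 stood apart: nuclear ribosomal RNA genes took 5.85% of its counts and mitochondrial ribosomal RNA genes 7.64%, against at most 1.96% and 0.76% in the other 29 libraries. It had the highest level of its group for many of the genes below, so counts for MET+LEU, and values of many members, are given with and without it. Mitochondrial ribosomal RNA genes also took 0.649% to 0.76% of counts in MET+LEU replicates 1 to 5, against 0.281% to 0.367% in SD. They took 0.501% to 0.71% in LEU and 0.244% to 0.705% in MET. Nuclear ribosomal RNA genes took 0.659% to 1.96% in MET+LEU replicates 1 to 5 and 0.209% to 0.89% in SD. Leaving out replicate 6 does not remove the mitochondrial difference between MET+LEU and SD, and its part in the members' changes was not tested.

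Levels differed among the members by 28 times per kb of exon. Npm1, encoding the histone chaperone and nucleolar scaffold nucleophosmin, was highest at 81.8 CPM per kb over the 5 group means. Bop1, a large-subunit factor, followed at 39.2 CPM per kb, then the RNA helicase gene Ddx21 at 34.2 CPM per kb. Wdr12, whose protein forms a complex with Bop1 and Pes1, was lowest at 2.92 CPM per kb, and Polr1b was next at 4.78 CPM per kb. Length here joins the exons of all annotated transcripts, 11955 bases for Wdr12 and 2957 for Bop1, so these ranks depend on the annotation. By CPM alone Wdr12 was above Gar1, with group medians of 33.5 to 36.2 CPM against 12.6 to 17 CPM. The lowest count of any member in any library was 163, in Gar1. The plot of levels per length shows that distances between genes were far larger than distances between groups.

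**Figure D1:**
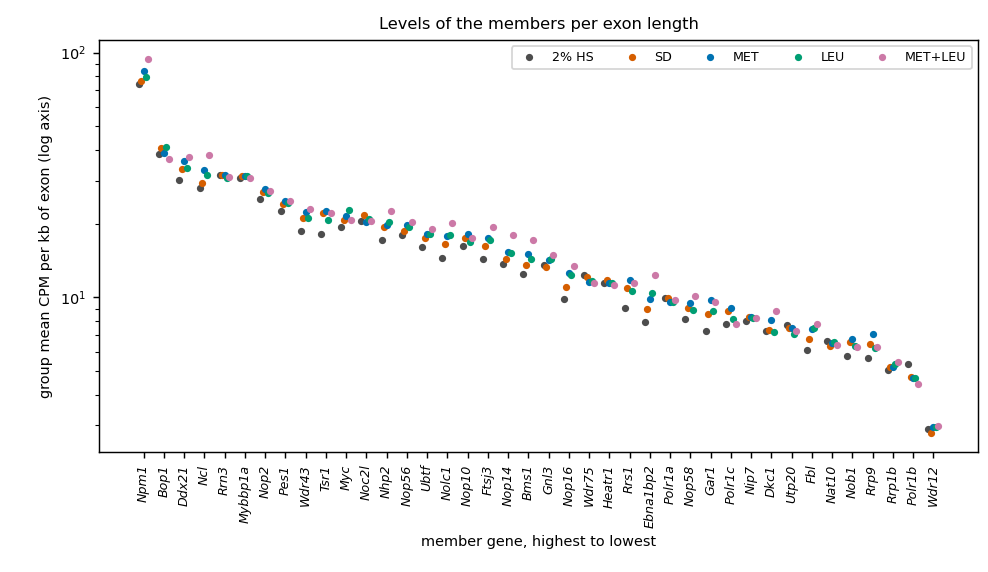
Mean level of each of the 40 members in each of the 5 groups, in CPM per kb of annotated exon on a log axis, ordered from highest to lowest. Npm1 stands above the others at 74.2 to 94.3 CPM per kb, and the 5 group means of any 1 gene lie close together.

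Serum deprivation was compared with 2% HS to ask how the pathway changed when myotubes lost serum. In SD vs. 2% HS, 9 of the 40 members rose and 1 fell (adjusted p under 0.05). Among all tested genes 13.9% rose and 13.9% fell, against 22.5% and 2.50% of the members. The median log2 fold change of the members was 0.09, beside 0.00 for all genes, and 33 of the 40 had a positive sign. The genes that rose were Tsr1, Rrs1, Nob1, Ftsj3, Wdr43, Fbl, Nop58, Ddx21 and Ubtf, and Polr1b fell. Changes were small, from -0.17 to 0.28 on the log2 scale. The 10 calls dropped to 6 without 2% HS replicate 4 or without SD replicate 3. Without MET+LEU replicate 6, which shares the estimate of spread, there were 14 higher and 1 lower, beside 14.9% and 15.4% of all genes. In bulk RNA, more cells of a type and more RNA per cell cannot be told apart.

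MET+LEU was compared with SD to ask what the combination changed in serum-deprived myotubes. In MET+LEU vs. SD, 17 of the 40 members rose and 1 fell, or 42.5% and 2.50%, while 10.6% of all tested genes rose and 7.80% fell. The median log2 fold change of the members was 0.06, beside -0.01 for all genes. Of the nucleolar body genes 5 of 6 rose, of the box C/D snoRNP genes 3 of 3, and of the Pol I and MYC genes 1 of 6, and without MET+LEU replicate 6 these counts were 5, 0 and 1. Differences between these groups of genes were not tested. Without MET+LEU replicate 6 the count was 11 members higher and none lower, with 7.58% of all genes higher and 5.96% lower. All 18 members that changed had a smaller fold change without that library, and all 18 kept their sign. Of the 18 calls, 11 held in every fit that left out 1 library and 6 held in every fit tried. With only the SD and MET+LEU groups fitted, 6 members passed.

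**Figure D2:**
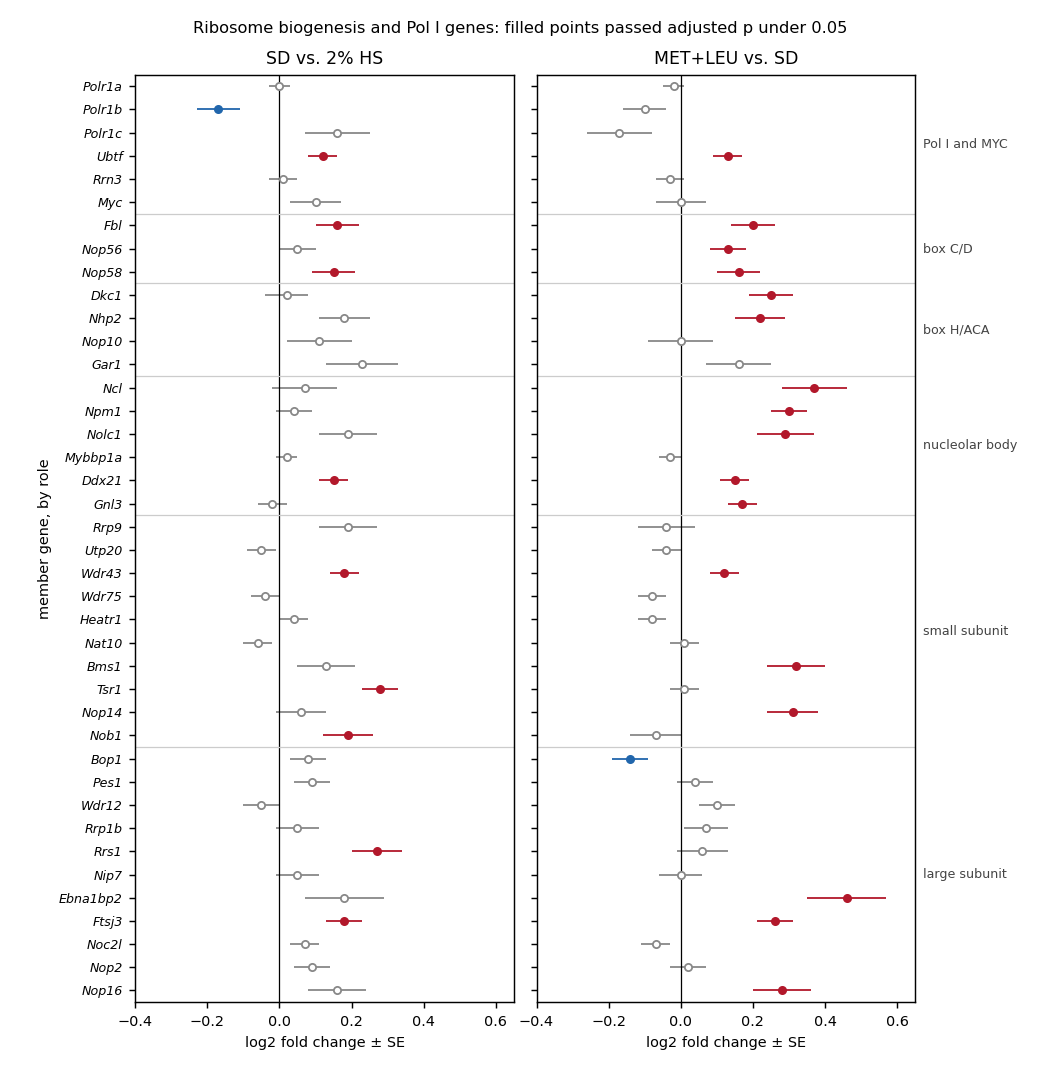
Log2 fold change ± SE of each of the 40 members, grouped by role, in SD vs. 2% HS on the left and MET+LEU vs. SD on the right. Filled points passed adjusted p under 0.05: 9 red points and 1 blue point on the left, 17 and 1 on the right, from -0.17 to 0.46.

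Of the Pol I genes, Polr1a encodes the largest catalytic subunit. Its level ran from 115 to 123 CPM in 2% HS with a median of 118, from 115 to 122 CPM in SD with a median of 117, and from 109 to 124 CPM in MET+LEU with a median of 117. The 5 groups overlapped. Its log2 fold change was -0.00 ± 0.03 (SE) in SD vs. 2% HS, with a 95% interval of -0.07 to 0.06, and -0.02 ± 0.03 for MET+LEU against SD, with an interval of -0.09 to 0.05.

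Polr1b encodes the subunit that pairs with Polr1a at the active centre. It ran from 28.5 to 32.6 CPM in 2% HS with a median of 30.9, and from 25.2 to 30.8 CPM in SD with a median of 26.3. SD replicates 1 and 6 lay within the 2% HS range and the other 4 below it. It fell by 0.17 ± 0.06 on the log2 scale (adjusted p = 0.0317). The call was lost without 2% HS replicate 4 or 5 or without SD replicate 2, 3, 4 or 5, and with no filter on low counts. In MET+LEU, Polr1b ran from 22 to 28.6 CPM with a median of 25.7, and the log2 fold change vs. SD was -0.10 ± 0.06 (adjusted p = 0.301). It was also lower than 2% HS in MET, at -0.19 ± 0.06 (adjusted p = 0.013), in LEU, at -0.19 ± 0.06 (adjusted p = 0.0133), and in MET+LEU, at -0.26 ± 0.06 (adjusted p = 0.000431).

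Polr1c encodes a subunit shared by Pol I and Pol III. Its medians were 18.1 CPM in 2% HS (13.9 to 20.9), 19.2 CPM in SD (18.1 to 22.8) and 18.3 CPM in MET+LEU (14.2 to 19.8). The groups overlapped, and its log2 fold changes of 0.16 ± 0.09 in SD vs. 2% HS and -0.17 ± 0.09 for MET+LEU against SD did not pass the test. Rrn3, whose protein makes Pol I competent to start, had medians of 134, 136 and 132 CPM in 2% HS, SD and MET+LEU, with a log2 fold change of 0.01 ± 0.04 in SD vs. 2% HS and -0.03 ± 0.04 for MET+LEU against SD. The ranges overlapped here too, at 131 to 143, 129 to 147 and 128 to 146 CPM.

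Ubtf encodes the factor that binds and opens ribosomal DNA, and was the Pol I gene that rose in both comparisons. It ran from 101 to 109 CPM in 2% HS (median 104), from 109 to 119 CPM in SD (median 115) and from 117 to 133 CPM in MET+LEU (median 125). In SD, 5 of 6 libraries were above every 2% HS library, and in MET+LEU, 5 of 6 were above every SD library. The log2 fold change was 0.12 ± 0.04 in SD vs. 2% HS (adjusted p = 0.00839) and 0.13 ± 0.04 for MET+LEU against SD (adjusted p = 0.00599). Without MET+LEU replicate 6 the latter was 0.12 ± 0.04 (adjusted p = 0.0187), and it did not pass when only the SD and MET+LEU groups were fitted.

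Myc ran from 49.6 to 57.7 CPM in 2% HS (median 51.9), from 50 to 62.9 CPM in SD (median 55.8), from 46.8 to 63.4 CPM in MET (median 59.9), from 55.8 to 70.4 CPM in LEU (median 61.1) and from 50.7 to 67.2 CPM in MET+LEU (median 55.1). All groups overlapped. Its log2 fold change was 0.10 ± 0.07 in SD vs. 2% HS (adjusted p = 0.313) and -0.00 ± 0.07 for MET+LEU against SD, with an interval of -0.13 to 0.13. LEU vs. 2% HS was the comparison in which Myc rose, by 0.23 ± 0.07 (adjusted p = 0.00761), with 5 of 6 LEU libraries above every 2% HS library.

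The promoter sequences of the members were searched because MYC, a member of the list, binds the E-box CACGTG, and because ETS-family factors bind the core CCGGAAG, which is common at housekeeping promoters. The windows, from RefSeq on GRCm38.p6, ran from 250 bases before to 50 bases after the start, and 35 of the 40 members matched one. Fbl, Bop1, Rrs1, Myc and Npm1 had no window in the table. Both strands were searched, the E-box reads the same on both, and the motifs do not overlap in sequence. An E-box was in 7 member genes of the 35, beside 11.6% of tested genes with a window and 7.15% of all windows. The ETS core was in 12 member genes (34.3%), beside 19.7% and 9.93%. These are matches of letters, with no test of a difference and no measure of binding.

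The matches shown are those of Tsr1 and Wdr43, which rose in SD vs. 2% HS and carried the E-box past the start, at bases 25 and 18 of the transcript, and of Rrn3 and Nop2, which did not pass the test and carried it before the start. Pes1, Utp20 and Mybbp1a also carried it past the start, at bases 3, 38 and 41 of the transcript, and did not pass in either comparison. Among all 40 members, 22.5% rose in SD vs. 2% HS, and a link between the E-box and the change was not tested. Capitals mark the E-box, each sequence is 5′ to 3′ on the gene's strand, and all 4 genes are on the plus strand.
Rrn3, chr16:13780454-13780519: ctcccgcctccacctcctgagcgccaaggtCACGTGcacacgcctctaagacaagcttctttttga
Rrn3, chr16:13780621-13780686: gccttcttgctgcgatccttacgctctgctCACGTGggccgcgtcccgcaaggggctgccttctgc
Nop2, chr6:125131793-125131858: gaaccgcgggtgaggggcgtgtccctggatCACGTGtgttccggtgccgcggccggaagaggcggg
Tsr1, chr11:74898093-74898120: cacttggtgcaCACGTGgactgcagaat
Wdr43, chr17:71616221-71616248: gcccgggcgaaCACGTGgctgccgcgga

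Among the 12 genes with an ETS core, Ebna1bp2, Bms1, Nolc1 and Nhp2 rose in MET+LEU vs. SD. All their matches are shown because these 4 genes passed the test, with the core in capitals as it reads on the gene's strand. The other 8 genes with an ETS core did not pass in that comparison, in which 42.5% of the 40 members rose. A link between the core and the change was not tested. Bms1 is on the minus strand and the others on the plus strand.
Ebna1bp2, chr4:118620785-118620813: caacgagaaaaCCGGAAGtgcggctatga
Ebna1bp2, chr4:118620805-118620833: cggctatgaacCCGGAAGcggaagtccct
Bms1, chr6:118419489-118419555: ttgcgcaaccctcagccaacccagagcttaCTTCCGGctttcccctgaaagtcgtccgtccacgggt
Bms1, chr6:118419406-118419434: gacagtttccgCTTCCGGcgtcgtgcttg
Nolc1, chr19:46075822-46075850: cgcgtgtgggaCCGGAAGcaacttctaga
Nhp2, chr11:51619739-51619767: cacttgaaaacCCGGAAGtgatgtcggag

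Box C/D snoRNPs methylate ribosomal RNA, and Fbl encodes their methyltransferase, fibrillarin. Fbl ran from 23.4 to 28.4 CPM in 2% HS (median 25.4), from 25.2 to 33 CPM in SD (median 28) and from 29.6 to 36.9 CPM in MET+LEU (median 32.5). In SD, 3 of 6 libraries were above every 2% HS library, and all 6 MET+LEU libraries were above every 2% HS library. The log2 fold change was 0.16 ± 0.06 in SD vs. 2% HS (adjusted p = 0.0482), a call that was lost in 21 of the 30 fits that left out 1 library, and 0.20 ± 0.06 for MET+LEU against SD (adjusted p = 0.0159). The latter was lost without SD replicate 2 and without MET+LEU replicate 6, where it was 0.16 ± 0.06 (adjusted p = 0.0632).

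Nop56 and Nop58 encode the scaffold of the same particle. Nop58 had medians of 87.8 CPM in 2% HS (83.7 to 92.9), 101 CPM in SD (87.5 to 105) and 102 CPM in MET+LEU (101 to 141). Its log2 fold change was 0.15 ± 0.06 in SD vs. 2% HS (adjusted p = 0.0468) and 0.16 ± 0.06 for MET+LEU against SD (adjusted p = 0.0376). The calls were lost in 19 and 17 of the 30 fits that left out 1 library. Nop56 rose in MET+LEU vs. SD by 0.13 ± 0.05 (adjusted p = 0.0496), a call lost in 25 of those fits. Without MET+LEU replicate 6, both genes were at 0.07 ± 0.04, and none of the 3 box C/D genes passed.

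Box H/ACA snoRNPs convert uridine to pseudouridine. Dkc1, the pseudouridine synthase dyskerin, ran from 26.8 to 36.2 CPM in SD (median 30.1), from 27.8 to 31.8 CPM in LEU (median 29.5) and from 34.4 to 41.2 CPM in MET+LEU (median 35.4). It rose in MET+LEU vs. SD by 0.25 ± 0.06 (adjusted p = 0.00178), and by 0.21 ± 0.06 without MET+LEU replicate 6 (adjusted p = 0.00942). All 6 MET+LEU libraries were above all 6 LEU libraries, a difference of 0.28 ± 0.06 (adjusted p = 0.00271). Nhp2 rose by 0.22 ± 0.07 vs. SD (adjusted p = 0.0193), and the call was lost without SD replicate 2, SD replicate 4 or MET+LEU replicate 6. Nop10, at 0.00 ± 0.09, and Gar1, at 0.16 ± 0.09, did not pass. None of the 4 passed in SD vs. 2% HS with all libraries fitted, where the values ran from 0.02 to 0.23. Without MET+LEU replicate 6, Nhp2 passed there at 0.17 ± 0.07 (adjusted p = 0.0472) and Gar1 at 0.22 ± 0.09 (adjusted p = 0.0408).

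Of the nucleolar body genes, 5 of 6 rose in MET+LEU vs. SD and 1 in SD vs. 2% HS. Without MET+LEU replicate 6, 2 rose in SD vs. 2% HS, as Nolc1 also passed, at 0.18 ± 0.05 (adjusted p = 0.00205). Ncl encodes nucleolin, an abundant RNA-binding protein of the nucleolus. It ran from 279 to 288 CPM in 2% HS (median 287), from 258 to 321 CPM in SD (median 311) and from 329 to 579 CPM in MET+LEU (median 357). Every MET+LEU library was above every SD library, and the value of 579 was replicate 6. The difference from SD was 0.37 ± 0.09 (1.29-fold, adjusted p = 0.00521), and 0.22 ± 0.04 without replicate 6 (adjusted p = 8.39e-05). The call was lost when only these 2 groups were fitted.

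Npm1, on chr11:33152287-33163206 (minus strand), ran from 191 to 202 CPM in 2% HS (median 198), from 183 to 227 CPM in SD (median 204) and from 226 to 301 CPM in MET+LEU (median 243). In MET+LEU, 5 of 6 libraries were above every SD library. Its log2 fold change was 0.30 ± 0.05 (adjusted p = 5.38e-05), 0.24 ± 0.04 without replicate 6 (adjusted p = 2.69e-05), and the call held in every fit tried. Npm1 was also higher in MET+LEU than in LEU, by 0.24 ± 0.05 (adjusted p = 0.00356), with all 6 libraries above all 6 LEU libraries.

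Nolc1, which binds both kinds of snoRNP, rose by 0.29 ± 0.08 (adjusted p = 0.00946), with medians of 57.7 CPM in 2% HS (54.4 to 60.9), 66.7 CPM in SD (59.6 to 68.3) and 74.4 CPM in MET+LEU (70.4 to 112). All MET+LEU libraries were above all SD libraries, and without replicate 6 the change was 0.17 ± 0.05 (adjusted p = 0.0117). Gnl3, the GTPase nucleostemin, rose by 0.17 ± 0.04 (adjusted p = 0.00301) and was 0.13 ± 0.04 without replicate 6 (adjusted p = 0.0216). Ddx21, a helicase that works in Pol I transcription and rRNA processing, rose in both comparisons, by 0.15 ± 0.04 each (adjusted p = 0.00352 for SD and 0.0064 for MET+LEU). Mybbp1a, a nucleolar MYB-binding protein, was at 0.02 ± 0.03 and -0.03 ± 0.03 and did not pass.

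**Figure D3:**
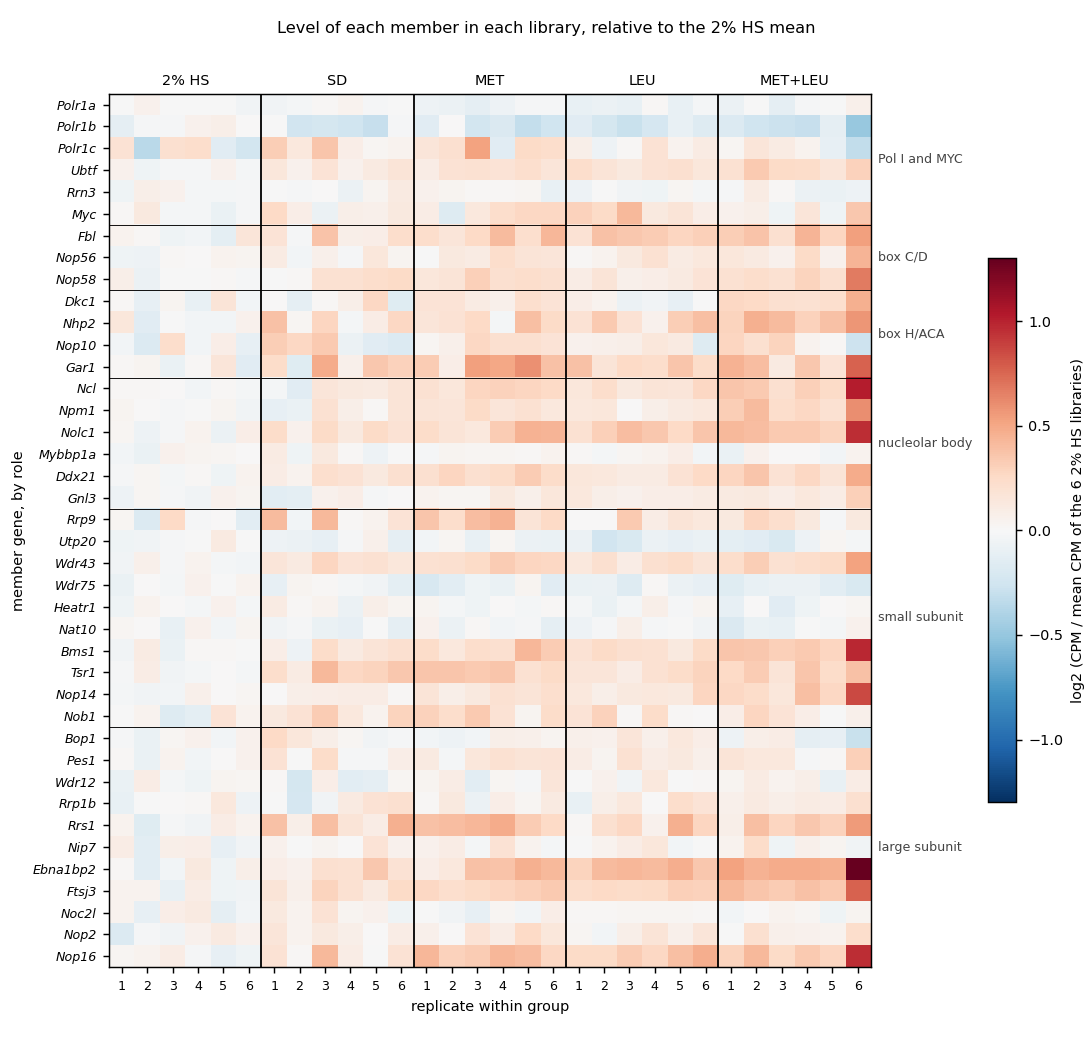
Level of each of the 40 members (rows, by role) in each of the 30 libraries (columns, by group and replicate), as log2 of CPM over the mean CPM of the 6 2% HS libraries. Red is higher and blue lower, and the column of MET+LEU replicate 6 is the reddest, with Ebna1bp2 at 68.7 CPM and Ncl at 579 CPM.

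The calls of the small-subunit genes differed between comparisons when all libraries were fitted. Tsr1 and Nob1 rose in SD and not further in MET+LEU, Bms1 and Nop14 rose in MET+LEU, and Wdr43 rose in both. These calls depended on MET+LEU replicate 6. Without it, Bms1 also passed in SD vs. 2% HS, at 0.13 ± 0.05 (adjusted p = 0.0266), and Wdr43 did not pass in MET+LEU vs. SD. Tsr1 encodes a GTPase-like factor of late small-subunit maturation. It ran from 67.6 to 74.6 CPM in 2% HS (median 68.6), from 75.1 to 93.2 CPM in SD (median 84.6) and from 78.3 to 90.3 CPM in MET+LEU (median 85.5). Every SD library was above every 2% HS library, and SD and MET+LEU overlapped. The log2 fold change was 0.28 ± 0.05 in SD vs. 2% HS (1.22-fold, adjusted p = 2.05e-06) and 0.01 ± 0.04 for MET+LEU against SD, with an interval of -0.08 to 0.10. Of its exon bases, 32.3% are shared with Srr on the opposite strand, and the strand setting of the counting is not given in the sources used here, so its level may hold reads of Srr.

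Wdr43, of the early complex that links Pol I transcription to small-subunit processing, ran from 86.3 to 93.3 CPM in 2% HS (median 87.6), from 96.1 to 108 CPM in SD (median 99.6) and from 102 to 128 CPM in MET+LEU (median 105). Every SD library was above every 2% HS library. It rose by 0.18 ± 0.04 in SD vs. 2% HS (adjusted p = 0.000955). Between SD and MET+LEU it changed by 0.12 ± 0.04 (adjusted p = 0.0464), and this call was lost in 24 of the 30 fits that left out 1 library, replicate 6 included, where it was 0.06 ± 0.04.

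Tsr1 and Wdr43 were the members whose SD and 2% HS libraries did not overlap, with 2 of 40 above and 0 below, beside 6.17% and 7.42% of all tested genes. Nob1, the endonuclease that makes the final cut of the small-subunit rRNA, ran from 18 to 22.8 CPM in 2% HS (median 20.4) and from 20.8 to 25.4 CPM in SD (median 22.6). The ranges overlapped, and it rose by 0.19 ± 0.07 (adjusted p = 0.0253), a call lost without 2% HS replicate 3 or 4 or SD replicate 3 or 6. In MET+LEU its median was 21.4 CPM (20.1 to 24.5), a difference of -0.07 ± 0.07 vs. SD that did not pass.

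Bms1, a GTPase needed for early cleavage of the precursor, ran from 56.8 to 64.9 CPM in 2% HS (median 60.8), from 57.7 to 71.6 CPM in SD (median 66.7) and from 73.2 to 119 CPM in MET+LEU (median 76.8). All MET+LEU libraries were above all SD libraries, and 119 CPM was replicate 6. Against SD the change was 0.32 ± 0.08 (adjusted p = 0.00554), and 0.19 ± 0.05 without replicate 6 (adjusted p = 0.00222). The call was lost when only these 2 groups were fitted.

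Nop14, a scaffold of the small-subunit processome, ran from 36.1 to 39.2 CPM in 2% HS (median 37.2), from 37.6 to 40 CPM in SD (median 39.6) and from 41.5 to 67.7 CPM in MET+LEU (median 45). The 2 groups did not overlap, and replicate 6 was the highest. The change was 0.31 ± 0.07 (adjusted p = 0.000657), and 0.20 ± 0.05 without it (adjusted p = 0.00173).

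The other small-subunit genes did not pass in either comparison. They were Rrp9, a protein of the U3 snoRNP, Utp20, Wdr75 and Heatr1, which belong to the early processome, and Nat10, an RNA acetyltransferase. In SD vs. 2% HS their log2 fold changes ran from -0.06 for Nat10 to 0.19 for Rrp9, and in MET+LEU vs. SD from -0.08 for Heatr1 and Wdr75 to 0.01 for Nat10.

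Among the large-subunit genes, Ebna1bp2 changed most of all members. It is on chr4:118620799-118627776 (plus strand) and encodes an early large-subunit assembly factor. It ran from 25.5 to 30.7 CPM in 2% HS (median 27.8), from 29.1 to 35.8 CPM in SD (median 32) and from 38.4 to 68.7 CPM in MET+LEU (median 39.3). All MET+LEU libraries were above all SD libraries, with replicate 6 far above the rest. Against SD the change was 0.46 ± 0.11 (1.38-fold, adjusted p = 0.00265), and 0.30 ± 0.06 without replicate 6 (adjusted p = 0.000219). The call held in every fit tried. In SD vs. 2% HS it was 0.18 ± 0.11 (adjusted p = 0.244), but passed without MET+LEU replicate 6, at 0.17 ± 0.06 (adjusted p = 0.0179), and with only these groups fitted.

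Ftsj3, a methyltransferase of the large-subunit precursor, rose in both comparisons. It ran from 58.2 to 66.9 CPM in 2% HS (median 62.4), from 65.4 to 76.1 CPM in SD (median 70.8) and from 78.4 to 106 CPM in MET+LEU (median 80.8). In SD, 5 of 6 libraries were above every 2% HS library, and MET+LEU did not overlap SD. The log2 fold change was 0.18 ± 0.05 in SD vs. 2% HS (adjusted p = 0.00531) and 0.26 ± 0.05 for MET+LEU against SD (adjusted p = 0.000255), or 0.18 ± 0.04 without replicate 6 (adjusted p = 0.00132).

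Rrs1, which helps bring the smallest large-subunit rRNA into the precursor, ran from 16.7 to 19.9 CPM in 2% HS (median 18.8) and from 19.6 to 25.6 CPM in SD (median 22.5). In SD, 4 of 6 libraries were above every 2% HS library, and it rose by 0.27 ± 0.07 (adjusted p = 0.00419). In MET+LEU its median was 23.3 CPM (19.6 to 27.2), 0.06 ± 0.07 from SD. Nop16 rose in MET+LEU vs. SD by 0.28 ± 0.08 (adjusted p = 0.0131), with 1 library above every SD library, and was 0.15 ± 0.07 without replicate 6 (adjusted p = 0.113).

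Bop1, a core factor of large-subunit processing, was the member that fell in MET+LEU vs. SD. It ran from 107 to 118 CPM in 2% HS (median 115), from 110 to 136 CPM in SD (median 118) and from 93 to 122 CPM in MET+LEU (median 108). In MET+LEU, 4 of 6 libraries were below every SD library, and the log2 fold change was -0.14 ± 0.05 (adjusted p = 0.0377). The call was lost without SD replicate 1 or 2 and without MET+LEU replicate 4, 5 or 6, by limma-voom, with only these 2 groups and with an offset for GC content. Its partners Pes1 and Wdr12 were at 0.04 ± 0.05 and 0.10 ± 0.05 and did not pass.

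The other 4 large-subunit genes, Rrp1b, Nip7, Noc2l and Nop2, did not pass in SD vs. 2% HS, at 0.05 to 0.09, nor in MET+LEU vs. SD, at -0.07 to 0.07. Over all 40 members, 7 had every MET+LEU library above every SD library and 0 had every one below, beside 3.41% and 1.93% of all tested genes. They were Ncl, Nolc1, Gnl3, Bms1, Nop14, Ebna1bp2 and Ftsj3.

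**Figure D4:**
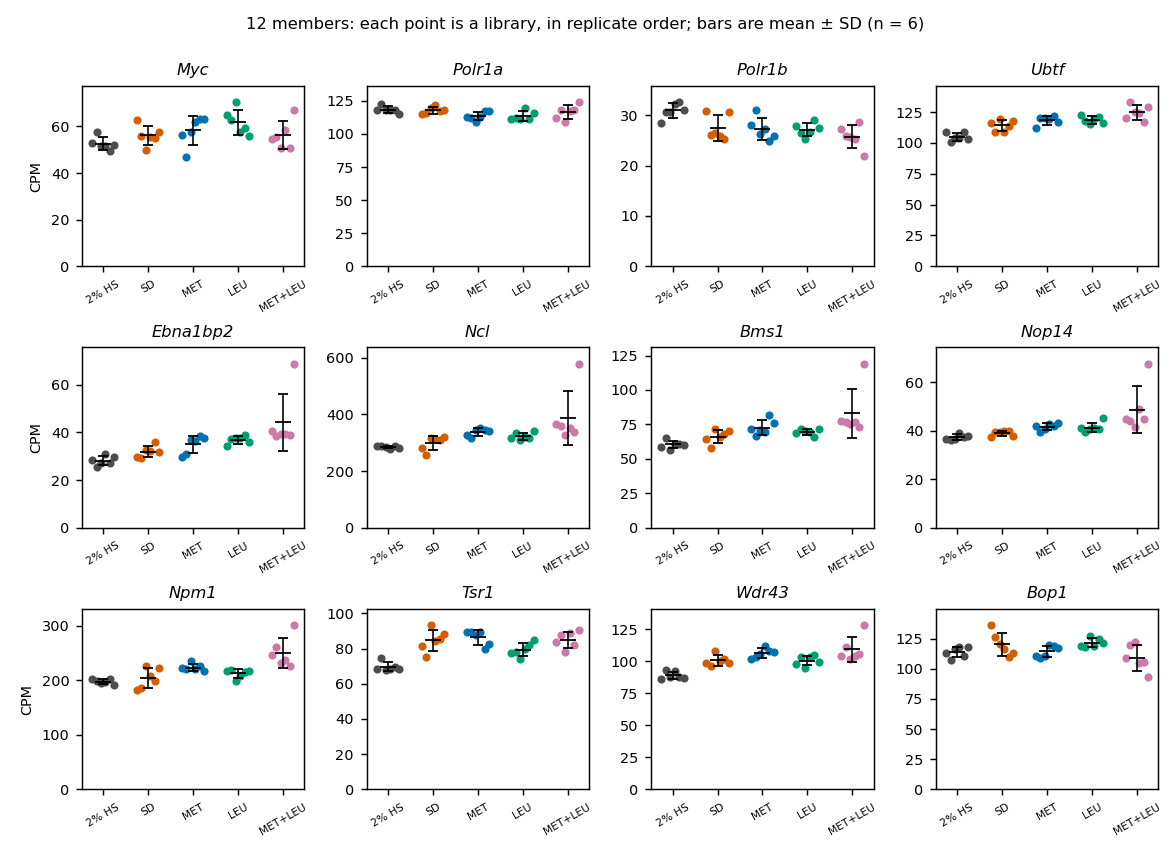
CPM of 12 members in every library, on axes that start at 0, with points in replicate order and black bars for mean ± SD (n = 6). MET+LEU replicate 6 is the highest point for Ebna1bp2 (68.7 CPM), Ncl (579 CPM), Bms1 (119 CPM) and Nop14 (67.7 CPM), while Polr1a stays between 109 and 124 CPM in all groups.

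Each agent was compared alone with SD to ask what it changed by itself. In MET vs. SD, 0 of 40 members passed, beside 0.157% of all tested genes, and at an unadjusted p under 0.05 there were 7 members, beside 10.0% of all genes. In LEU vs. SD, 0 members passed, beside 0.553% of all genes, and 5 were at an unadjusted p under 0.05, beside 9.98%. DESeq2 and limma-voom also gave 0 in both. The members' log2 fold changes ran from -0.08 to 0.20 in MET vs. SD and from -0.11 to 0.21 in LEU vs. SD. Without MET+LEU replicate 6, which changes the shared estimate of spread, Ncl passed in MET vs. SD at 0.18 ± 0.04 (adjusted p = 0.00749) and Ebna1bp2 in LEU vs. SD at 0.22 ± 0.06 (adjusted p = 0.0267).

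The test of interaction asked whether MET+LEU differed from the sum of both single effects. It passed for 0 of 40 members, beside 0.0503% of all genes, and 0 were at an unadjusted p under 0.05, beside 8.73%. DESeq2 and limma-voom also gave 0. The smallest member p was 0.0551 (adjusted p = 0.579), and the interaction estimates ran from -0.19 to 0.15.

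The combination was then set against each agent. In MET+LEU vs. MET, 4 members rose and 0 fell, beside 5.54% and 3.15% of all genes. They were Ebna1bp2 at 0.33 ± 0.10 (adjusted p = 0.0465), Nop14 at 0.22 ± 0.07 (adjusted p = 0.0302), Npm1 at 0.17 ± 0.05 (adjusted p = 0.0309) and Ftsj3 at 0.16 ± 0.05 (adjusted p = 0.0359). MET ran from 29.7 to 38.6 CPM for Ebna1bp2 (median 36.4), from 39.4 to 43.4 CPM for Nop14 (median 42), from 217 to 235 CPM for Npm1 (median 222) and from 72.8 to 78.9 CPM for Ftsj3 (median 75.5). All 4 genes overlapped between these groups, and 0 passed without MET+LEU replicate 6, without MET replicate 1 or 2, or with only these 2 groups.

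In MET+LEU vs. LEU, 6 members rose and 1 fell, beside 4.61% and 1.67% of all genes. Besides Dkc1 and Npm1, these were Nop14 at 0.23 ± 0.07 (adjusted p = 0.029), Nop58 at 0.19 ± 0.06 (adjusted p = 0.0351), Ftsj3 at 0.17 ± 0.05 (adjusted p = 0.0302) and Ddx21 at 0.14 ± 0.04 (adjusted p = 0.032), with Bop1 at -0.15 ± 0.05 (adjusted p = 0.042). LEU ran from 39.4 to 45.3 CPM for Nop14 (median 40.9), from 92.4 to 99.9 CPM for Nop58 (median 94.9), from 73.3 to 77.4 CPM for Ftsj3 (median 74.3) and from 118 to 127 CPM for Bop1 (median 120.3). All MET+LEU libraries of Nop58 and Ftsj3 were above all LEU libraries, while Nop14 and Bop1 overlapped. How many of all tested genes lacked overlap was not counted for MET+LEU vs. LEU. Dkc1 and Npm1 passed without MET+LEU replicate 6, at 0.24 ± 0.06 (adjusted p = 0.0138) and 0.17 ± 0.04 (adjusted p = 0.00997), and the others did not. Nop14, Ftsj3 and Bop1 each lost the call in 6 or 7 of the 30 fits that left out 1 library, and Nop58 and Ddx21 in 19.

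**Figure D5:**
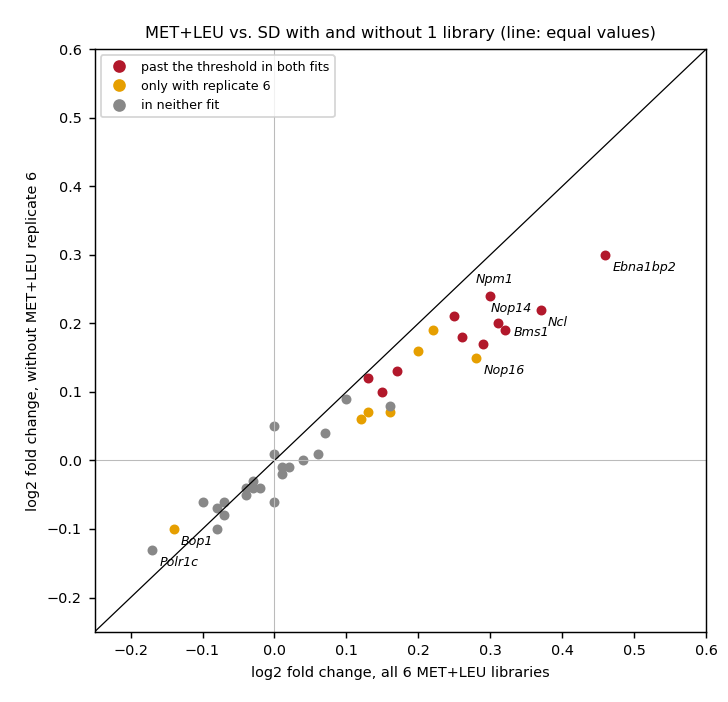
Log2 fold change of the 40 members in MET+LEU vs. SD with all 6 MET+LEU libraries (horizontal axis) and without replicate 6 (vertical axis). The line marks equal values. The 11 red points passed in both fits, the 7 orange points with replicate 6 alone, and Ebna1bp2 moved from 0.46 to 0.30.

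All 3 treated groups were also compared with 2% HS, which they share as control along with SD. In MET vs. 2% HS, 22 members rose and 1 fell, beside 17.4% and 17.5% of all genes. Gar1 was at 0.41 ± 0.09 (adjusted p = 0.000418), Rrs1 at 0.38 ± 0.07 (adjusted p = 5.16e-05) and Nop16 at 0.36 ± 0.08 (adjusted p = 0.000548). Rrp9 was at 0.32 ± 0.08 (adjusted p = 0.00124) and Tsr1 at 0.31 ± 0.05 (adjusted p = 1.82e-07). Every MET library was above every 2% HS library for Rrs1 (22.2 to 25.9 CPM, median 24.3), Nop16 (21.8 to 24.4 CPM, median 23.3) and Tsr1 (79.6 to 89.6 CPM, median 88.6), and not for Gar1 (13.3 to 18.9 CPM against 11.3 to 13.9) or Rrp9 (18.7 to 22.9 CPM against 14.7 to 19.9). These genes were named for their large rise, and the share of all tested genes without overlap was not counted for MET vs. 2% HS.

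In LEU vs. 2% HS, 13 members rose and 2 fell, beside 14.4% and 15.3% of all genes. Ebna1bp2 was at 0.39 ± 0.11 (adjusted p = 0.00645), Nop16 at 0.33 ± 0.08 (adjusted p = 0.00177) and Nolc1 at 0.32 ± 0.08 (adjusted p = 0.00278). Fbl was at 0.31 ± 0.06 (adjusted p = 8.37e-05) and Gar1 at 0.27 ± 0.09 (adjusted p = 0.0235). For all 5, every LEU library was above every 2% HS library, and the call of Gar1 was lost without 2% HS replicate 6 or LEU replicate 1. They too were named for their large rise, and no share of all tested genes without overlap was counted for LEU vs. 2% HS. Utp20 fell by 0.13 ± 0.04 on the log2 scale (adjusted p = 0.0166), at 66.6 to 75.1 CPM (median 73.9) against 76.1 to 85.7 CPM (median 78.3), with no overlap, and its call was lost without 2% HS replicate 5 or LEU replicate 2 or 3.

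In MET+LEU vs. 2% HS, 21 members rose and 2 fell, beside 22.1% and 20.3% of all genes. Ebna1bp2 was at 0.64 ± 0.11 (1.56-fold, adjusted p = 1.84e-05), Nolc1 at 0.47 ± 0.08 (adjusted p = 1.45e-05) and Bms1 at 0.45 ± 0.08 (adjusted p = 4.65e-05). Ncl was at 0.44 ± 0.09 (adjusted p = 0.000276) and Ftsj3 at 0.44 ± 0.05 (adjusted p = 9.88e-10). Without MET+LEU replicate 6 these were 0.47 for Ebna1bp2, 0.35 for Nolc1, 0.32 for Bms1, 0.29 for Ncl and 0.36 for Ftsj3, and all 5 passed. In 18 members all MET+LEU libraries were above all 2% HS libraries and in 0 all were below, beside 11.5% and 9.51% of all tested genes. Wdr75, of the early processome, fell by 0.12 ± 0.04 (adjusted p = 0.0159), at 53.1 to 57.6 CPM (median 55.9) against 57.3 to 63.3 CPM (median 60.8). Of the 23 members that changed, 22 kept their call in every fit tried, and without MET+LEU replicate 6 there were 20 higher and 3 lower.

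The median of the 40 members was taken in each library, relative to their 2% HS means on the log2 scale. It lay between -0.011 and 0.012 in the 2% HS libraries and between 0.016 and 0.182 in SD. It ran from 0.108 to 0.193 in MET, from 0.074 to 0.138 in LEU and from 0.076 to 0.311 in MET+LEU, where 0.311 was replicate 6. All 24 serum-deprived libraries were above all 2% HS libraries, and the 4 serum-deprived groups overlapped each other.

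Of 147 further genes of the pathway, 145 could be tested. In SD vs. 2% HS 25 rose and 6 fell, or 17.2% and 4.14% of those tested, beside 13.9% and 13.9% of all genes. In the comparison of MET+LEU with SD 42 rose and 8 fell, beside 10.6% and 7.80% of all genes, and 25 and 6 without replicate 6, beside 7.58% and 5.96%. The counts of the smaller lists that follow are to be read against the same shares. Log2 fold changes of the genes named from them are from the fit of all libraries. Apart from the call of Taf1c, results of single genes of these lists without replicate 6 are not given here. Among other Pol I and rDNA transcription genes, 4 of 17 rose and 1 fell in MET+LEU vs. SD, and 2 rose and 0 fell without replicate 6. Polr2f, a subunit shared by the nuclear RNA polymerases, rose by 0.50 ± 0.07 (adjusted p = 4.97e-06) and Polr1d, shared by Pol I and Pol III, by 0.23 ± 0.06 (adjusted p = 0.00843). Taf1c, of the Pol I promoter selectivity factor, was higher in SD than in 2% HS by 0.37 ± 0.11 (adjusted p = 0.0119) and fell by 0.35 ± 0.11 in MET+LEU vs. SD (adjusted p = 0.0258), a call lost without replicate 6.

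Of the other small-subunit genes, 2 of 46 rose and 2 fell in SD vs. 2% HS, and 15 rose and 2 fell in MET+LEU vs. SD (10 and 1 without replicate 6). Utp3 rose by 0.74 ± 0.14 (adjusted p = 0.000357), Nol7 by 0.52 ± 0.09 (adjusted p = 6.69e-05) and Mphosph10, of the U3 snoRNP, by 0.45 ± 0.09 (adjusted p = 0.000601). Of the other large-subunit genes, 12 of 50 rose and 2 fell in SD, where the helicase gene Ddx51 fell by 0.55 ± 0.05 (adjusted p = 8.28e-13) and Sbds, which releases Eif6 from the large subunit, rose by 0.35 ± 0.06 (adjusted p = 1.2e-05). With MET+LEU against SD, 17 rose and 3 fell (11 and 3 without replicate 6), led by Nsa2 at 0.47 ± 0.06 (adjusted p = 3.78e-07), Rrp15 at 0.43 ± 0.09 (adjusted p = 0.000689) and Rpf2, the partner of Rrs1, at 0.38 ± 0.10 (adjusted p = 0.00833).

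Of 9 snoRNP assembly genes, 3 rose in SD and 2 in MET+LEU vs. SD (1 without replicate 6). Znhit6, which assembles box C/D particles, rose in both, by 0.44 ± 0.08 (adjusted p = 3.78e-05) and 0.35 ± 0.08 (adjusted p = 0.00121). Of 13 tested genes of the RNA exosome, which trims rRNA precursors, 0 passed in SD by edgeR, with 0 at an unadjusted p under 0.05, and 4 rose in MET+LEU vs. SD (1 without replicate 6), with Exosc3 at 0.48 ± 0.09 (adjusted p = 0.000246). Of 10 tested genes of the MYC network, 4 rose and 2 fell in SD, and 0 rose and 2 fell in MET+LEU vs. SD, with and without replicate 6. Mxd3, a MAX partner that represses MYC targets, was 0.70 ± 0.15 higher in SD than in 2% HS (adjusted p = 0.000425). It fell by 0.96 ± 0.16 in MET+LEU vs. SD (adjusted p = 2.36e-05). Its level was low, with means of 2.6, 4.2 and 2.14 CPM in 2% HS, SD and MET+LEU. Mxd4, with means of 104 CPM in 2% HS and 136 CPM in SD, rose by 0.39 ± 0.04 (adjusted p = 1.76e-10). It did not pass in MET+LEU vs. SD.

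Markers of cycling cells moved in the same comparisons. Their sum was 236 to 272 CPM in 2% HS, 247 to 318 CPM in SD and 187 to 223 CPM in MET+LEU. In SD vs. 2% HS 4 of 10 rose, and in MET+LEU vs. SD 9 of 10 fell, with Aurkb at -0.95 ± 0.13 (adjusted p = 1.77e-06), while 17 of the 40 members rose and 22 did not pass. All 4 tested fibroblast markers rose in SD vs. 2% HS. Of 10 muscle markers, 1 rose and 4 fell in that comparison, with Ckm at -0.98 ± 0.09 (adjusted p = 6.25e-10), and the myoblast marker Pax7 was at -0.37 ± 0.04 (adjusted p = 1.25e-10). Between SD and MET+LEU, 2 muscle markers rose and 1 fell, with Tnnt3 at 0.82 ± 0.11 (adjusted p = 1.08e-05). The counts of muscle and cycling markers in MET+LEU vs. SD were the same without MET+LEU replicate 6. Values of single markers without it are not given here. The part of these marker lists in the members' changes was not tested.

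Several members host small nucleolar RNA genes within their own gene bodies. Nop56, Nop58, Dkc1, Ncl, Gnl3, Wdr43 and Tsr1 together hold 21 annotated snoRNA genes, of which 0 had enough counts to be tested, the highest total over 30 libraries being 183. Of the 21, 10 overlap exons of the host and 9 of these had a count of 0. The part of overlapping reads in these counts was not tested. Changes of these host genes say nothing of the snoRNAs they carry.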

How the data were processed

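Total RNA from 30 C2C12 libraries (5 groups of 6) was made into stranded, ribosomal RNA-depleted libraries. The authors deposited 1 table of raw read counts per Ensembl gene, with no normalization. The submitters' processing notes name cutadapt 1.16, STAR 2.7.6a, featureCounts 1.6.3, DESeq2 1.30.1 and GRCm38. The annotation release and the strand setting of counting are not given in the sources used here. Groups came from the sample labels. Of 55487 identifiers, 55227 matched GENCODE release 21 for mouse (GRCm38), used for symbols, positions and exon lengths, and the other 260 held 0.00434% of counts.

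Counts were tested in R 4.3.3 with edgeR 4.0.16: TMM scaling, filterByExpr (minimum count 10, total 15), and a robust quasi-likelihood F test on all 30 libraries over 10 comparisons, with Benjamini-Hochberg adjustment over 15907 genes at 0.05. Levels are CPM on TMM-scaled library sizes. SE is the absolute log2 fold change over the square root of F. No 2 libraries of a group agreed within sampling noise (chi-square per degree of freedom of 2.33 or more over 75 pairs). The tests were checked on simulated counts. Alternatives were DESeq2 1.42.0 (size factors, Wald test), limma 3.58.1 voom with quality weights, upper-quartile scaling, ribosomal RNA genes removed, no filter on low counts, only the groups compared, a replicate block, each library left out, an adjusted p of 0.01 and, added after seeing the data, an offset for GC content.

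The members and gene lists were chosen with earlier results of these data known. By rule, values were given for the 5 members of largest change in each direction per comparison and for Myc, Fbl and the Pol I genes, and up to 3 genes were named per further list. Values of other members were added after they were seen. Figures were drawn with matplotlib.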

Additional observations from a re-analysis of the deposited data

Results flagged for a closer look

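A library was singled out where its gap to the nearest of its group exceeded 0.625 of the group's range (Dixon's 95% value for 6 libraries). Chance alone gives about 1 in 20 groups, and 9 of 90 groups over 18 members were marked. The 18 were Myc, Fbl, the Pol I genes and the called members of largest change in SD vs. 2% HS and MET+LEU vs. SD. They were thus picked partly by these values, and 1 in 20 is no fair measure for them. Other members were not checked, and in replicate 6 Nolc1 was at 112 CPM and Nop58 at 141 CPM. The other MET+LEU libraries were at most at 76.9 and 108 CPM. In MET+LEU, replicate 6 was the highest for Ebna1bp2 (68.7 CPM), Ncl (579 CPM), Bms1 (119 CPM), Nop14 (67.7 CPM), Ftsj3 (106 CPM) and Wdr43 (128 CPM). This is the library with 5.85% nuclear and 7.64% mitochondrial ribosomal RNA, and the part of that in the members' levels was not tested. Nop14 was also highest in LEU replicate 6, at 45.3 CPM. Rrn3 was lowest in MET replicate 6, at 127 CPM, and Tsr1 highest in 2% HS replicate 2, at 74.6 CPM.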

How the results depend on the processing

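Over all comparisons of groups, the number of members past the threshold was the measure most moved by the processing. In SD vs. 2% HS it went from 10 to 6 at an adjusted p under 0.01, and leaving out 1 library gave 6 to 15. In MET+LEU vs. SD it went from 18 to 6 with only the groups compared and to 11 at an adjusted p under 0.01, and leaving out 1 library gave 11 to 18, with 11 without MET+LEU replicate 6. MET and LEU, each against SD, had 0 to 1 with 1 library left out, and LEU had 1 with only the groups compared. MET vs. 2% HS went from 23 to 14 at an adjusted p under 0.01. LEU vs. 2% HS went from 15 to 23 by limma-voom and to 24 with only the groups compared. MET+LEU vs. MET went from 4 to 1 with upper-quartile scaling, 2 with ribosomal RNA genes removed, 1 by limma-voom, 1 with no filter on low counts, 0 with only the groups compared and 0 at an adjusted p under 0.01, and leaving out 1 library gave 0 to 4. MET+LEU vs. LEU went from 7 to 3 with upper-quartile scaling, 3 by limma-voom, 2 with only the groups compared, 4 with the GC content offset and 2 at an adjusted p under 0.01, and leaving out 1 library gave 2 to 10. The cause was not tested. Log2 fold changes near 0 changed sign. The log2 fold change of Polr1a in SD vs. 2% HS was 0.003 by limma-voom and -0.017 to 0.003 with 1 library left out. Likewise, the log2 fold change of Rrn3 in SD vs. 2% HS was -0.002 with upper-quartile scaling and -0.016 to 0.022 with 1 library left out. The log2 fold change of Myc in MET+LEU vs. SD was 0.003 with only the groups compared, 0.037 with the GC content offset and -0.06 to 0.027 with 1 library left out. The lowest member count in a library was 163, and the part of depth in these changes was not tested.

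The groups share replicate numbers, and a fit with replicate number as a block called 13 members in SD vs. 2% HS, 18 in MET+LEU vs. SD, 24, 16 and 23 in MET, LEU and MET+LEU vs. 2% HS, 5 and 8 in MET+LEU vs. MET and vs. LEU, and 0 in MET vs. SD, LEU vs. SD and the interaction. No count moved by over 1.5 times. Libraries of the same number deviated from their group means with a mean correlation of 0.0157 (-0.0913 to 0.142), beside -0.00314 for different numbers. Of 60 pairs, 2 were over 0.1, and 11 of 30 libraries correlated best with their own number. What chance gives for that count was not worked out, so it does not show the numbers to be unrelated. The main fit took no pairing, and the block is given as an alternative.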
